A study of Mus musculus with 16 samples.

Results

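This report describes the alleles of mt-Nd3 and mt-Nd4l, which encode the complex I subunits ND3 and ND4L, in mitochondrial DNA of sorted mouse skeletal cells. The members were all non-reference bases at positions 9459 to 9806 (mt-Nd3, 348 positions) and 9877 to 10166 (mt-Nd4l, 290 positions, without its overlap with mt-Nd4) of the GRCm38 mitochondrial sequence. Both genes lie on the forward strand, with the arginine tRNA gene between them, and both are coding throughout. With 3 possible non-reference bases per position this gave 1044 mt-Nd3 and 870 mt-Nd4l alleles, or 1914 of the 48897 alleles at all 16299 positions. Names of alleles give the reference base first, then the position with the first base of the sequence as 1, then the base of the allele.

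The 16 bulk ATAC-seq libraries came from femurs of 3-month-old mice, all homozygous for PolG D257A, an allele of the mitochondrial DNA polymerase that lacks proofreading. Sorting gave 8 subsets that carry the names of surface markers: CD45 (a marker of blood cells), Thy, 6C3, CD105, CD24 and CD29, and the marker pairs Thy_6C3 and CD24_CD29. Every subset has a replicate 1 and a replicate 2, and every library carries the PolG change. Gates are not labelled, nor is the mouse or pool behind a library, so a p-value here speaks of the spread among libraries, and this spread may be technical. The tables hold mitochondrial bases only, so the sorted cell types could not be checked against marker genes.

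Complex I is the first enzyme of the respiratory chain and couples electron transfer from NADH to proton pumping. ND3 and ND4L are small, hydrophobic subunits of its membrane arm, near the junction with the peripheral arm. A loop of ND3 carries a cysteine that is exposed when the mammalian enzyme is in its deactive state, and ND4L carries a pair of conserved glutamates in the membrane part of the proton path. In the vertebrate mitochondrial code TGA is read as tryptophan, so that a G>A change in the middle of a TGA codon gives the stop codon TAA.

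The sequences of 10 alleles that the results turn on are shown 5′ to 3′ on the forward strand, as reference bases of the deposited tables in GRCm38, with 10 bases on each side. The changed base is in capitals. The first pair are the stop-gain alleles of mt-Nd3, the next 4 the other mt-Nd3 alleles found in many libraries, and the last 4 the mt-Nd4l alleles found in many libraries.
G9526A (ND3 W23*), chrM:9516-9536: gttgcattctGactcccccaa
G9775A (ND3 W106*), chrM:9765-9785: gcatatgaatGaacacaaaaa
A9504G (ND3 T16A), chrM:9494-9514: attatccctaAcgctaattct
C9581T (ND3 F41F), chrM:9571-9591: aatgcggattCgaccctacaa
T9648C (ND3 L64L), chrM:9638-9658: tacatttctaTtatttgacct
A9720G (ND3 M88V), chrM:9710-9730: ctctactataAtaattatagc
T9936A (ND4L L20L), chrM:9926-9946: tagggacactTatatttcgct
C10044T (ND4L S56S), chrM:10034-10054: ccataagctcCataccaatcc
C10099T (ND4L L75L), chrM:10089-10109: agctgtaggaCtagccctact
A10101G (ND4L L75L), chrM:10091-10111: ctgtaggactAgccctactag

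Mean coverage of the 2 genes together ran from 6937 counts per position in CD24_CD29 replicate 2 to 81168 in CD29 replicate 1, and no position of either gene was covered by fewer than 4960 counts. Where no read had an allele, its fraction could still reach 3 counts over the mean coverage, or 0.0432% and 0.00370% in these 2 libraries. Without molecular identifiers, such limits and all intervals below hold for counting error alone. Thy replicate 2 stood apart from the rest, with 100 member alleles at 1% or more, of which 86 were A>C or T>G changes and 95 reached 1% in none of the other replicate 2 libraries. The other 15 libraries held 4 to 20 member alleles each, so results that include the Thy libraries are given with and without them where they differ.

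The word counted is used here of an allele that made up 1% or more of a library's coverage and had at least 5 counts. In all, 148 of the 1914 alleles were counted in at least 1 library, 73 in mt-Nd3 and 75 in mt-Nd4l. Without Thy replicate 2 there were 53, of which 29 lay in mt-Nd3 and 24 in mt-Nd4l. Of these 53, 48 were transitions, which is 7.52% of the 638 transitions possible in the 2 genes, against 515 of 10758 possible transitions (4.79%) in the other 11 protein genes. Transversions were counted for 0.392% of the possible ones in the 2 genes and for 0.925% in the other 11 genes. By change, the 15 libraries counted 16 T>C, 14 A>G, 13 C>T and 5 G>A alleles in the 2 genes. These are descriptive counts, with no test.

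Few alleles were shared widely. Of the 53 alleles outside Thy replicate 2, 37 were counted in exactly 1 library. At the other end, 10 alleles were counted in at least 4 of the 8 libraries of a replicate number, 6 in mt-Nd3 and 4 in mt-Nd4l. Those of mt-Nd3 were 2 stop-gain, 2 missense and 2 synonymous alleles, while all 4 of mt-Nd4l were synonymous. In the other 11 protein genes, 29 of 101 such alleles were synonymous and 1 was a stop gain. G9775A, T9936A and C10044T were counted in each of the 8 replicate 1 libraries, and G9526A in each of the 8 replicate 2 libraries. With the threshold at 0.5%, mt-Nd4l held 10 synonymous and 8 other widespread alleles, so the lack of protein-changing ones does not hold at that threshold.

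**Figure D1:**
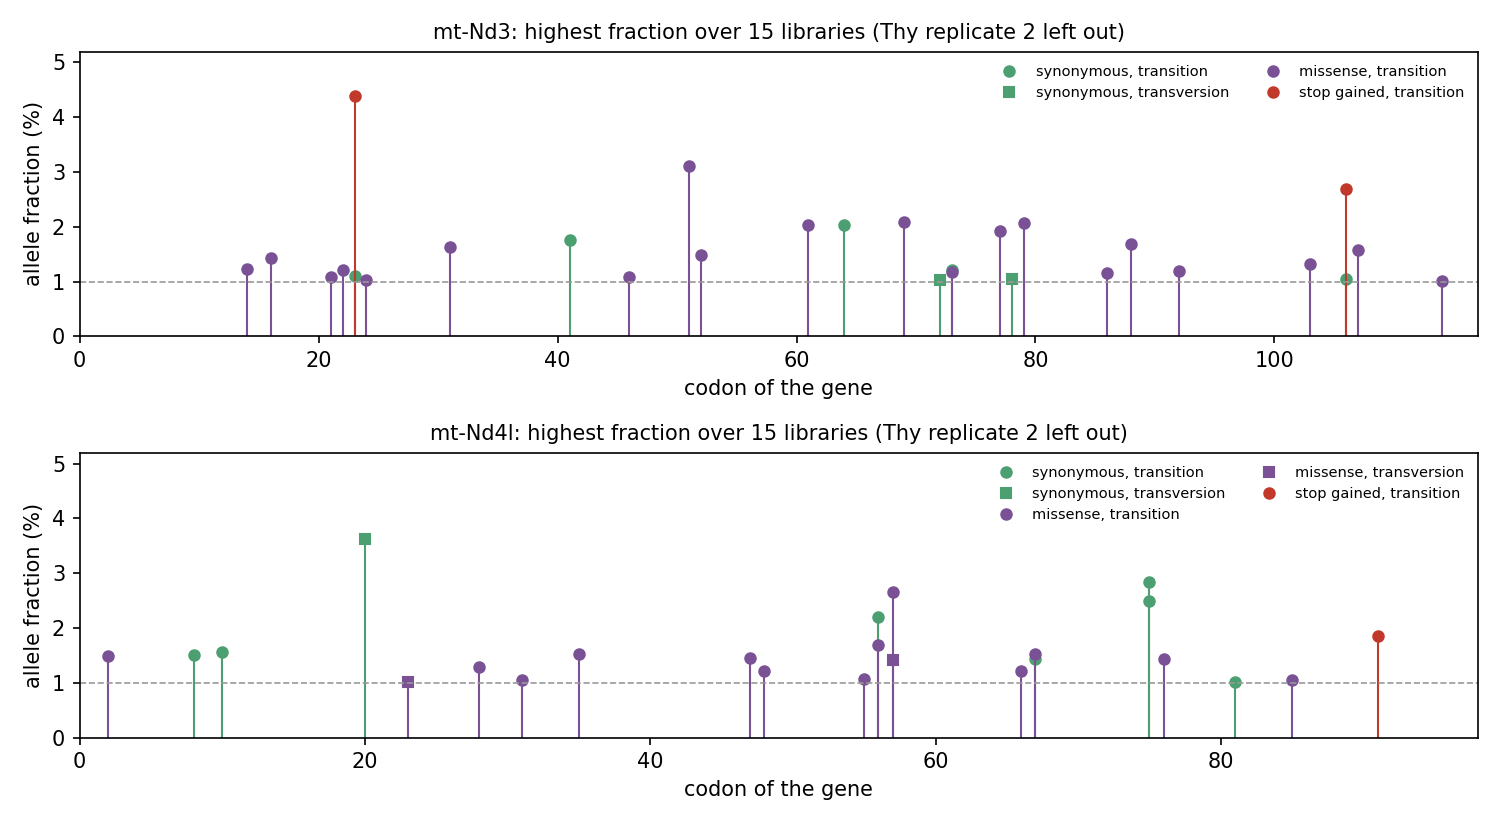
Highest fraction (percent of reads) of each allele counted at 1% or more in any of 15 libraries, by codon of mt-Nd3 (top) and mt-Nd4l (bottom); colour gives the effect on the protein, circles are transitions and squares transversions, and Thy replicate 2 is left out. The stop-gain alleles at codons 23 and 106 of mt-Nd3 reach 4.39% and 2.69%, and the tallest mt-Nd4l allele is the synonymous T9936A at codon 20.

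By mean fraction within a replicate number, the highest allele of mt-Nd3 was a stop gain in each number, and a different one. G9526A turns codon 23, a tryptophan codon near the start of the reading frame (116 codons with the stop), into TAA. In replicate 1 it had 0.133% of reads in CD45, 0.882% in Thy, 0.597% in 6C3, 0.156% in Thy_6C3, 0.301% in CD105, 0.343% in CD24, 0.0683% in CD24_CD29 and 0.223% in CD29. In replicate 2 it had 3.00% in CD45, 3.43% in Thy, 3.19% in 6C3, 4.39% in Thy_6C3, 2.39% in CD105, 3.09% in CD24, 1.56% in CD24_CD29 and 3.53% in CD29. Every replicate 2 library was above every replicate 1 library. The mean was 0.338% ± 0.274 in replicate 1 and 3.07% ± 0.833 in replicate 2 (SD, n = 8 each), a log2 difference of -3.56 (SE 0.385, replicate 1 over replicate 2, adjusted p = 1.61e-05 by the edgeR quasi-likelihood test). G9526A was chosen for its high mean and reached 1% only in replicate 2, so this p-value is no independent test of the numbers.

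G9775A turns codon 106 into TAA, close to the end of the frame, and had the opposite pattern. In replicate 1 it had 2.29% in CD45, 1.70% in Thy, 1.66% in 6C3, 2.56% in Thy_6C3, 2.52% in CD105, 1.70% in CD24, 2.57% in CD24_CD29 and 2.69% in CD29. In replicate 2 it had 0.138% in CD45, 0.170% in Thy, 0.0721% in 6C3, 0.0497% in Thy_6C3, 0.108% in CD105, 0.0188% in CD24, 0.0361% in CD24_CD29 and 0.221% in CD29. The 2 sets of libraries did not overlap. The mean was 2.21% ± 0.446 in replicate 1 and 0.102% ± 0.0707 in replicate 2 (SD, n = 8 each), a log2 difference of 4.66 (SE 0.409, edgeR adjusted p = 1.86e-06). The same limit holds for this p-value, since G9775A was likewise chosen by its mean and reached 1% only in replicate 1.

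**Figure D2:**
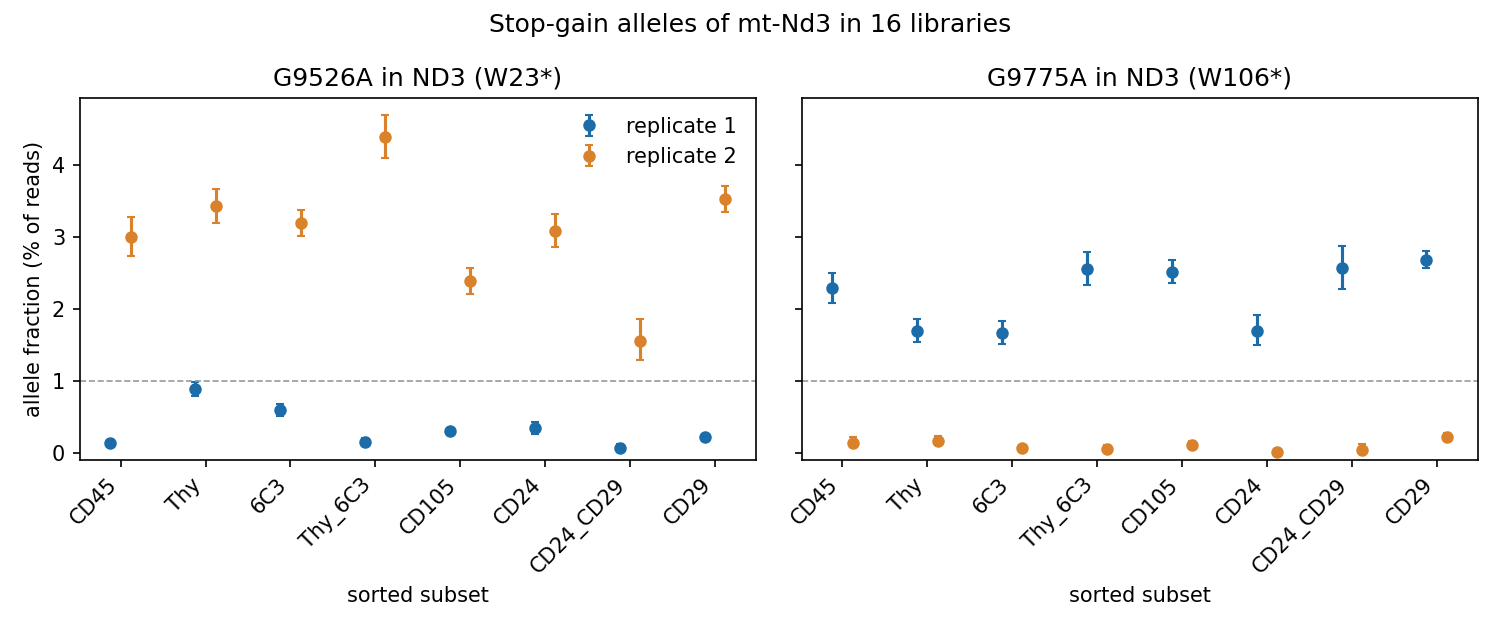
Fraction of reads (percent) with each mt-Nd3 stop-gain allele by sorted subset, for replicate 1 (blue) and replicate 2 (orange); bars are exact (Clopper-Pearson) 95% intervals, which cover counting error only, and the dashed line marks 1%. G9526A lies above 1% in all 8 replicate 2 libraries and below it in replicate 1, and G9775A the other way round.

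Libraries of the same replicate number also differed by more than counting error alone. Each subset has 1 library in a number, so that a difference between subsets and one between libraries cannot be told apart. In replicate 2, G9526A was at 1.56% in CD24_CD29 (exact 95% interval 1.30 to 1.86) and at 4.39% in Thy_6C3 (4.10 to 4.70). CD24_CD29 was likewise the lowest subset for this allele in replicate 1, while the highest there was Thy. For G9775A the lowest replicate 1 fraction was in 6C3 (1.51 to 1.83) and the highest in CD29 (2.56 to 2.81). The subsets of lowest and highest G9775A fraction in replicate 2 were CD24 and CD29.

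Both alleles led the stop gains of the whole mitochondrial genome. Over all 1803 possible stop-gain alleles of the 13 protein genes, G9775A had the highest mean of replicate 1 and ranked 1223 in replicate 2. G9526A ranked 111 in replicate 1 and had the highest mean of replicate 2. The next highest mean was 1.60% in replicate 1 (A13380T, ND5 K547*) and 1.30% in replicate 2 (A15004G, CYTB K287*). The frame of mt-Nd3 holds 13 stop gains that a transition can make, 4 of them from TGA to TAA. The other 2 of these tryptophan codons carried little: G9688A (W77*) had means of 0.0205% ± 0.0173 in replicate 1 and 0.0975% ± 0.0781 in replicate 2, and G9796A (W113*) had 0.267% ± 0.181 in replicate 1 and 0.143% ± 0.0981 in replicate 2 (SD, n = 8 each). G9688A and G9796A, like the pair from the other genes, were chosen after their values were seen.

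The part of the mt-Nd4l frame read here holds no TGA codon, so a stop gain of this kind was not possible there. Its 6 stop-gain transitions stayed under 1% in 15 of the 16 libraries. The exception was C10147T (Q91*), at 1.85% (exact 95% interval 1.53 to 2.21) in CD24_CD29 replicate 2, the shallowest library. It was next highest in CD29 replicate 2, at 0.442%, and had 0 of 13187 reads in CD24_CD29 replicate 1, which allows up to 0.0227%. No start-codon change was counted in either gene.

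The other widespread alleles of mt-Nd3 divided in the same way, with 1 exception. Widespread alleles were chosen by their fractions within a number, which favours such a division. For both genes, their p-values between numbers are therefore no independent test. The share among likewise chosen alleles of other genes was not counted. T9648C, synonymous at leucine 64, ran from 0.771% to 2.03% in replicate 1 (median 1.48%) and from 0.0887% to 0.304% in replicate 2 (median 0.226%), without overlap (log2 difference 2.83, SE 0.382, edgeR adjusted p = 0.000119). A9720G, which replaces methionine 88 by valine, ran from 0.0316% to 0.246% in replicate 1 (median 0.117%) and from 0.294% to 1.69% in replicate 2 (median 1.21%), also without overlap (log2 difference -3.13, SE 0.410, edgeR adjusted p = 9.12e-05). A9504G, which replaces threonine 16 by alanine, had 0.389% ± 0.160 in replicate 1 and 1.01% ± 0.330 in replicate 2 (SD, n = 8 each). These groups overlapped in CD29 replicate 2 at 0.430%. Its edgeR adjusted p was 0.0254 with all libraries, and between 0.0686 and 0.0853 when either library of CD45, Thy_6C3, CD105, CD24 or CD24_CD29 was left out. Without the fraction filter it was 0.178.

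The exception was C9581T, synonymous at phenylalanine 41. It was counted in 6 libraries of each number, from 0.707% to 1.75% in replicate 1 (median 1.19%) and from 0.629% to 1.94% in replicate 2 (median 1.11%). Its means of 1.16% ± 0.329 and 1.17% ± 0.407 in replicates 1 and 2 (SD, n = 8 each) gave a log2 difference of 0.01 (SE 0.330, edgeR adjusted p = 0.984). A similar evenness was seen for A9692C (A78A), with means just under the threshold, at 0.867% ± 0.116 in replicate 1 and 0.868% ± 0.114 in replicate 2. A9692C itself was counted in CD24 replicate 2, at 1.05%. The mt-Nd4l allele G9944T, which replaces arginine 23 by leucine, had 0.671% ± 0.0614 in replicate 1 and 0.747% ± 0.144 in replicate 2 (SD, n = 8 each).

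In mt-Nd4l the widespread alleles changed no amino acid. T9936A, a transversion at leucine 20 and the highest mt-Nd4l allele, ran from 1.89% to 3.62% in replicate 1 (median 2.59%) and from 0.158% to 0.408% in replicate 2 (median 0.208%). The groups did not overlap, and the log2 difference was 3.55 (SE 0.303, edgeR adjusted p = 1.50e-06). C10044T, at serine 56, had 1.62% ± 0.454 in replicate 1 and 0.447% ± 0.292 in replicate 2 (SD, n = 8 each). Its lowest replicate 1 library had 1.05% (CD24) and its highest replicate 2 library 0.998% (Thy_6C3), so the groups did not overlap but came close. The edgeR adjusted p of C10044T was 0.00597 with all libraries and 0.0518 without Thy replicate 1 or Thy replicate 2, and 0.123 without the fraction filter.

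The codon for leucine 75 of ND4L carried a different synonymous allele in each number. C10099T, at its first base, ran from 0.0466% to 0.256% in replicate 1 (median 0.146%) and from 0.759% to 2.59% in replicate 2 (median 2.30%), with no overlap (log2 difference -3.88, SE 0.368, edgeR adjusted p = 4.30e-06). A10101G, at its last base, ran from 0.413% to 2.85% in replicate 1 (median 2.05%) and from 0.184% to 0.454% in replicate 2 (median 0.348%). CD24_CD29 replicate 1, at 0.413%, was the only replicate 1 library of A10101G to fall within the replicate 2 range, and the log2 difference was 2.50 (SE 0.390, edgeR adjusted p = 0.000499). CD24_CD29 was thus the lowest subset for C10099T in replicate 2 and for A10101G in replicate 1.

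**Figure D3:**
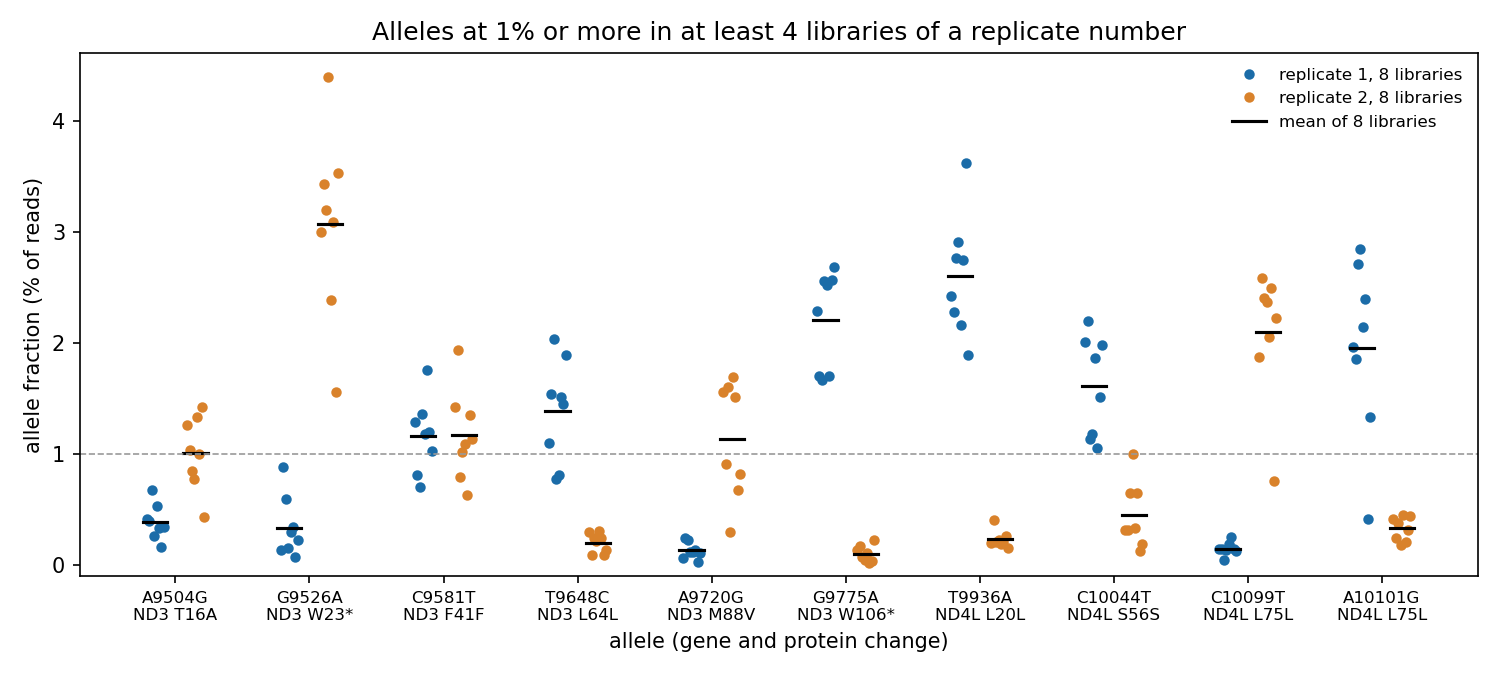
Fraction of reads (percent) with each of the 10 alleles counted in at least 4 libraries of a replicate number, in 8 replicate 1 libraries (blue) and 8 replicate 2 libraries (orange); black lines are means and the dashed line marks 1%. C9581T is alike in both numbers, while the other 9 are higher in 1 number, 7 of them without overlap. The alleles were chosen by their fractions within a number, which favours a gap between the numbers.

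The replicate numbers were compared over all 3487 alleles counted in any library, with the subset as a block. Of these, 201 passed at an adjusted p of 0.05, which is 5.76% of all alleles tested. Of the 148 members, 11 passed (7.43%), of which 6 were higher in replicate 1, beside 95 of all 3487 alleles (2.72%), and 5 were higher in replicate 2, beside 106 of 3487 (3.04%). Besides the 9 described, they were A10077G in mt-Nd4l (A67A), with 0.781% ± 0.371 in replicate 1 and 0.221% ± 0.154 in replicate 2, and T10018C in mt-Nd4l (S48P), with 0.259% ± 0.215 in replicate 1 and 0.836% ± 0.371 in replicate 2 (SD, n = 8 each). For both alleles the groups overlapped. The edgeR adjusted p was 0.00638 for T10018C and 0.0186 for A10077G, against 0.118 for T10018C and 0.255 for A10077G without the fraction filter. For A10077G it lay between 0.0526 and 0.0610 when either library of Thy_6C3, CD105 or CD24 was left out. Of the 148 members, 7 did not overlap between numbers, against 125 of 3487 alleles (3.58%). Each of the 11 called members, which include these 7, reached 1% only in the number where it was higher. They entered the fit through that number, so their p-values and gaps are no independent test. Without Thy replicate 2, and with the alleles chosen anew, 14 of 53 members passed, beside 196 of 1130 alleles (17.3%).

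Fractions were compared between subsets in the same kind of fit, without the block. No member passed the edgeR quasi-likelihood test, either over all subsets together or in any subset set against the mean of the other 7, and the share of all alleles that passed was 0.0% in each of these 9 comparisons. With counts simulated for CD24_CD29, this test called 2% of 4-fold and 76% of 16-fold differences, so smaller differences would mostly be missed. The simulated alleles had no gap between replicate numbers, so these shares do not hold for alleles split by number. At an unadjusted p under 0.05 there were 1 of 148 members over all subsets, 73 for Thy, 7 for CD24_CD29, 6 for Thy_6C3, 1 each for 6C3, CD24 and CD29, and 0 for CD45 and CD105. The share of all 3487 alleles under this unadjusted p is not given here, so these counts are no result about the members. DESeq2 passed 83 members for Thy, beside 2024 of all 3487 alleles (58.0%), and 2 for CD24_CD29, beside 67 of 3487 (1.92%). It passed no member in the others, where the share of all alleles was 0.516% over all subsets, 0.172% for Thy_6C3 and 0.0% for CD45, 6C3, CD105, CD24 and CD29. Thy replicate 2, with its A>C and T>G alleles, is 1 of the 2 libraries behind the Thy numbers. It also chose most of the alleles tested: without it, 53 of the 148 members and 1130 of the 3487 alleles would have entered. The Thy counts are thus no independent test of that subset. Without Thy replicate 1, 94 members passed for Thy in edgeR, beside 2396 of 3487 alleles (68.7%), and that fit rests on Thy replicate 2 as the lone Thy library.

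The member nearest to a subset difference outside Thy was A9527G (W23W), at the last base of the tryptophan codon that G9526A turns into a stop. In CD24_CD29 it had 1.10% in replicate 1, against 0.0932% to 0.329% in the other subsets of that number. In replicate 2 it had 0.817% in CD24_CD29, against 0.135% to 0.362% in the others. CD24_CD29 was the highest subset in both numbers, with a log2 difference of 2.29 (SE 0.556, edgeR adjusted p = 0.349 and 0.149 with the replicate number as a block, DESeq2 adjusted p = 0.00794). Without the fraction filter the edgeR adjusted p of A9527G was 0.251. A9527G reached 1% only in CD24_CD29, so it entered the fit through the subset where it was high. Its p-values for that subset are therefore no independent test.

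C10103T, which replaces alanine 76 of ND4L by valine, was the mt-Nd4l allele with the smallest p for the same subset. It had 0.693% in CD24_CD29 replicate 1, against 0.0317% to 0.430% in the other subsets, and 1.44% in CD24_CD29 replicate 2, against 0.0813% to 0.269%. The log2 difference was 2.58 (SE 0.695, edgeR adjusted p = 0.406 and 0.335 without the fraction filter, DESeq2 adjusted p = 0.00825). C10103T likewise reached 1% only in CD24_CD29, and the same limit holds for its p-values. CD24_CD29 had the lowest coverage in both numbers, and the part of depth in these differences was not tested.

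Outside Thy, alleles restricted to 1 library were most frequent in the same subset. In replicate 1, 8 of the 14 member alleles counted in CD24_CD29 were counted in no other library of that number, against 0 to 2 in each other subset. All 8 were T>C or A>G changes. In replicate 2, 14 of 20 were restricted to CD24_CD29, 6 of them T>C or A>G and 7 C>T or G>A, against 0 to 3 in the other subsets except Thy, with 95. The highest of these CD24_CD29 alleles were A9693G (ND3 I79V) at 2.06% (exact 95% interval 1.82 to 2.33) in CD24_CD29 replicate 1, T10046C (ND4L M57T) at 2.66% (2.33 to 3.02) in CD24_CD29 replicate 2, and A9663G (ND3 I69V) at 2.08% (1.77 to 2.42) in the same library. The next highest libraries of the same number had 0.264% of A9693G, 0.630% of T10046C and 0.354% of A9663G. The highest missense allele of the 15 libraries without Thy replicate 2, T9609C (ND3 F51L), was also highest in CD24_CD29 replicate 2, at 3.11%, with 1.12% in its next highest library. CD24_CD29 was high in the other forward-strand protein genes too. Weighted by mt-Nd3 base composition, their alleles at 1% or more gave 0.0311% per position in replicate 1, against 0.0141% to 0.0172% in other subsets. In replicate 2 they gave 0.0389%, against 0.0141% to 0.0274% outside Thy. Restricted alleles were not counted in those genes.

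The codons of the ND3 cysteine and of both ND4L glutamates named above were read for every base. Their reference sequences are shown with the codon in capitals.
ND3 cysteine 39, chrM:9564-9584: ccatatgaaTGCggattcgac
ND4L glutamate 34, chrM:9967-9987: ctatgcctgGAAggcatagta
ND4L glutamate 70, chrM:10075-10095: gcagcctgcGAAgcagctgta
None of the 9 alleles of each codon was counted in any library. At cysteine 39 the highest was C9575T, synonymous, at 0.947% in Thy_6C3 replicate 1. At glutamate 34 it was A9977G (E34G), at 0.740% in CD24_CD29 replicate 2. At glutamate 70 it was A10086C (E70D), at 0.794% in Thy replicate 2, and without that library the synonymous A10086G, at 0.721%.

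The load of a gene was the mean over its positions of the summed non-reference fraction, which includes sequencing errors. For mt-Nd3 it ran from 0.399% in CD24 replicate 2 to 0.505% in 6C3 replicate 1 over 15 libraries, and was 1.09% in Thy replicate 2. For mt-Nd4l it ran from 0.405% in CD24 replicate 2 to 0.496% in CD24_CD29 replicate 2, and was 1.19% in Thy replicate 2. Alleles at 1% or more gave a small part of it. Without Thy replicate 2, they gave 0.0209% ± 0.0125 in mt-Nd3 and 0.0222% ± 0.0105 in mt-Nd4l (SD, n = 15), ranks 10 and 8 among the 15 protein and ribosomal RNA genes.

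Neither gene's load, load of alleles at 1% or more, nor number of such alleles differed between subsets beyond the spread between libraries, with adjusted p from 0.537 to 0.786 (exact permutation test over all pairings of the libraries, one-sided, 6 values). Without Thy replicate 2 the subsets held a fraction of 0.850 of the variance of the mt-Nd3 load (exact permutation p = 0.0166, 0.0996 after adjustment). Between replicate numbers the load of mt-Nd3 alleles at 1% or more was 0.0161% ± 0.00781 in replicate 1 and 0.0460% ± 0.0571 in replicate 2 (SD, n = 8 each). It was lower in replicate 1 in 7 of 8 subsets (exact permutation p = 0.0234, two-sided, 0.141 after adjustment over 6 values). Without Thy replicate 2, the replicate 2 mean was 0.0264% ± 0.0150 (SD, n = 7), and replicate 1 was lower in 6 of the 7 subsets left (exact permutation p = 0.0469, two-sided, 0.225 after adjustment). For mt-Nd4l the same load was lower in replicate 1 in 3 of 8 subsets (exact permutation p = 0.969).

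**Figure D4:**
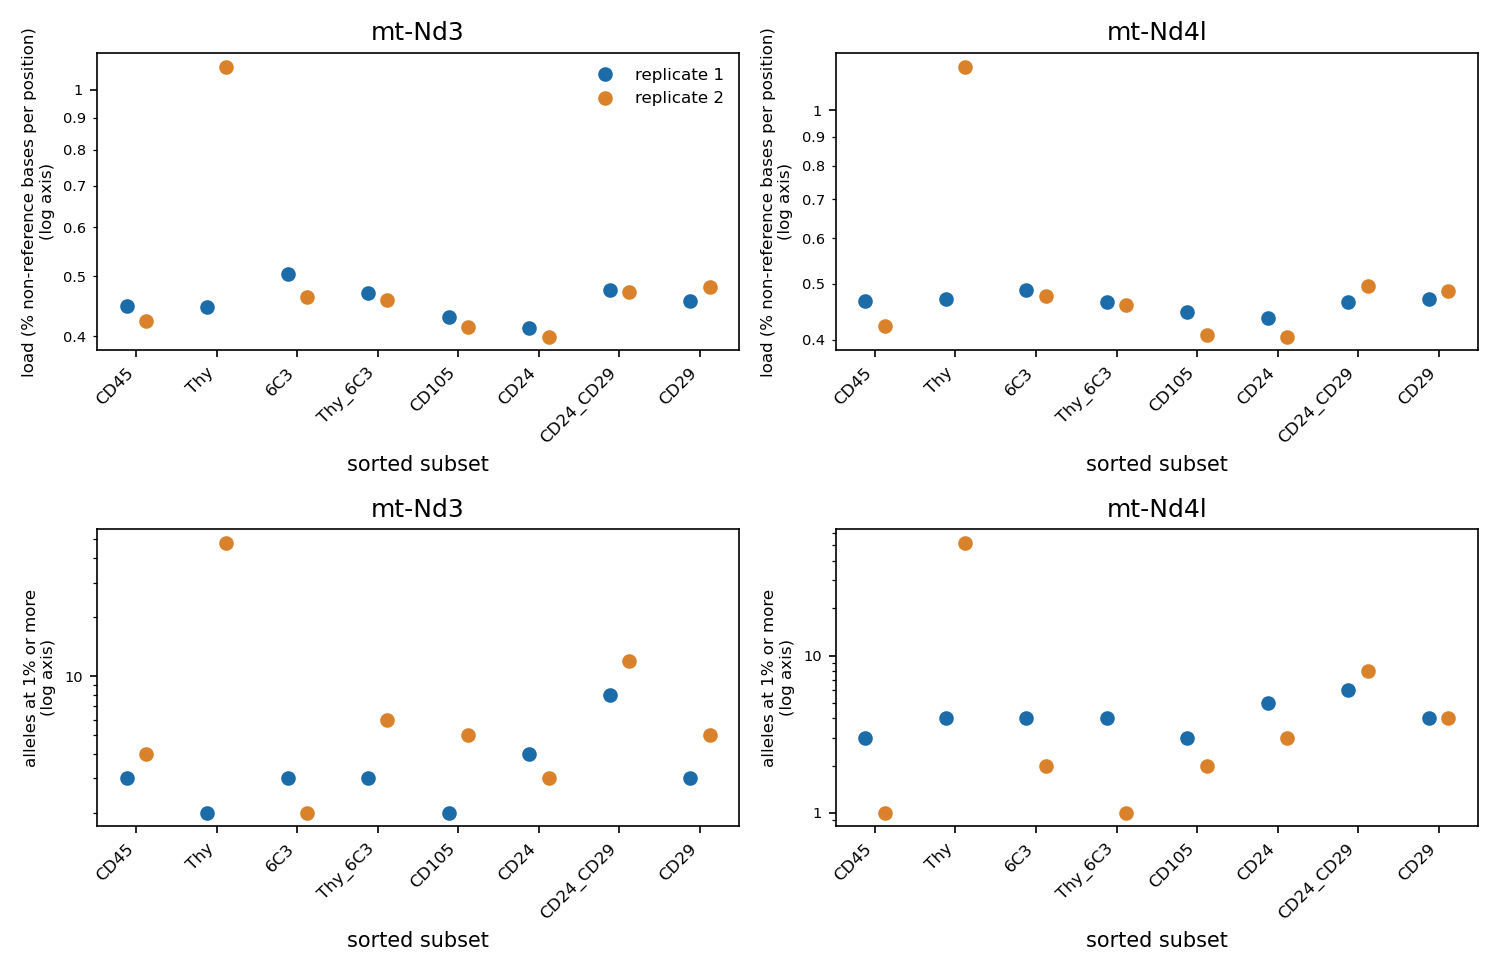
Load (percent non-reference bases per position, log axis, top) and number of alleles at 1% or more (log axis, bottom) of mt-Nd3 (left) and mt-Nd4l (right) by sorted subset, in replicate 1 (blue) and replicate 2 (orange), 1 library per point. Thy replicate 2 lies far above the other 15 libraries in all 4 panels, and CD24_CD29 holds the most alleles among the rest.

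The load of each gene was also set against that expected from its base composition and the mean fraction of each base change in the other forward-strand protein genes. The log2 ratio of observed to expected load averaged 0.01 ± 0.03 for mt-Nd3 and 0.03 ± 0.04 for mt-Nd4l (SD, n = 16 libraries). It was above 0 in the mean of 7 of 8 subsets for each gene (exact permutation p = 0.398 for mt-Nd3 and 0.0156 for mt-Nd4l, two-sided, 0.531 and 0.0625 after adjustment over 4 values). Libraries of a number share alleles, so the 8 subset means are not independent. These p-values say only how the difference compares with the spread between subsets. By change, G>A bases averaged 0.145% ± 0.0303 per position in mt-Nd3, against 0.0909% ± 0.00806 in the other forward-strand protein genes, and were higher in mt-Nd3 in 14 of 15 libraries without Thy replicate 2. That mean is over 38 G positions and rests on G9526A and G9775A: the other 36 averaged 0.0745% ± 0.0231 (SD, n = 15), higher than in the other protein genes in 4 of 15 libraries. The mean of the other genes kept all its alleles, among them G3079A of mt-Nd1 with a mean of 17.8% in replicate 1. The 2 means were thus not trimmed alike, and their order does not place the rest of mt-Nd3 below the other genes. In mt-Nd4l all G>A bases averaged 0.0646% ± 0.0241, and were higher than in the other protein genes in 1 of 15 libraries (SD, n = 15).

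Over the 16 libraries the load of alleles at 1% or more in mt-Nd3 was most like that of mt-Cytb (Spearman's rho 0.824), mt-Rnr2 (0.776), and mt-Nd1 and mt-Co3 (0.774 both). That of mt-Nd4l was most like mt-Nd4 (0.885), mt-Atp6 (0.862) and mt-Nd2 (0.859). The 2 genes were little alike, with a rho of 0.218, or 0.05 without Thy replicate 2. These values are descriptions over 16 libraries that share alleles within a replicate number and differ in depth.

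The alleles whose fractions ran most like the leading members were themselves split by replicate number. G9775A was most like G3079A (ND1 S110N), with Pearson's r of 0.979 over 16 libraries, a mean of 17.8% in replicate 1 and 0.331% in replicate 2. Within the 8 replicate 1 libraries its r was 0.499. G9526A was most like A2841C (ND1 M31L), with r of 0.960 and means of 0.0937% in replicate 1 and 1.32% in replicate 2, and within replicate 2 r was 0.673. C10099T of mt-Nd4l came next but 1 in likeness to G9526A (r = 0.951, 0.834 within replicate 2), and both were lowest in CD24_CD29 there. T9936A was most like A10308G (ND4 N48D), with r of 0.988, a mean of 5.58% in replicate 1 and 0.0921% in replicate 2, and r of 0.673 within replicate 1. The pooled r of these alleles rests on the gap between the numbers, and all are given as descriptions.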

How the data were processed

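Bulk ATAC-seq libraries were made by Tn5 tagmentation of sorted cells and read from both ends on a NovaSeq6000, per the labels' protocols. The authors deposited raw counts for 16 libraries, as coverage per mitochondrial position and as reads with every other base there. The submitters' processing notes name bcl2fastq 2.20, cutadapt 2.10, BWA 0.7.17 and the builds GRCm38 and mm10. How base quality, mapping quality, duplicates and nuclear copies were handled is not given in the sources used here, and each can change a low fraction.

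The fraction was the count over the coverage. RefSeq (GRCm38.p6) gave the genes, and alleles were translated singly with the vertebrate mitochondrial code, in which AGA and AGG are stops. mt-Nd4l positions that overlap mt-Nd4 were left out. Members and lists were chosen with earlier results of these data known. Samples were grouped by the subset and replicate number in their titles.

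Alleles at 1% or more with at least 5 counts in any library (3487) entered edgeR 4.0.16 (R 4.3.3, quasi-likelihood test, Benjamini-Hochberg over all 3487, threshold 0.05), with 2 columns per library, 1 of allele reads and 1 of all other reads. Terms for libraries took up depth, and terms on the allele column stood for subsets and, in the replicate comparison, for the number. Same-numbered libraries of different subsets deviated together, with correlations of 0.343 to 0.863 in 28 of 28 pairs, so the numbers pair the libraries. Loads were tested by exact permutation, over pairings of libraries between subsets and over 256 sign flips between numbers or against other genes. Fractions of single libraries have exact (Clopper-Pearson) 95% intervals. Coverage per library is given with the results.

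Named alleles were those counted in 4 or more libraries of a replicate number, the 5 highest means per gene and number, the highest restricted allele per library, counted stop or start changes, the smallest p per contrast, called alleles and the 3 codons of known role. Alternatives were DESeq2 1.42.0, a quasi-binomial model, thresholds of 0.5% and 2%, the replicate block, other backgrounds and leaving out each library or the Thy subset. On simulated counts at 3487 alleles, the edgeR fit between replicate numbers called 2% of 2-fold, 30% of 4-fold, 44% of 8-fold and 86% of 16-fold differences (50 alleles each). For CD24_CD29 against the other subsets it called 0% of 2-fold, 2% of 4-fold, 40% of 8-fold and 76% of 16-fold differences (50 alleles each). Simulated libraries varied independently, and those for CD24_CD29 held no gap between replicate numbers, unlike the data. Figures were drawn with matplotlib 3.10.9, and the other values came from Python 3.11.15 with pandas 2.3.3, scipy 1.17.1 and numpy 2.4.6.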

Additional observations from a re-analysis of the deposited data

Results flagged for a closer look

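In groups of 8 libraries of a replicate number, 9 of 23 sets of values held a library set far from the others. The sets reuse the same libraries and are not independent, so this count cannot be set against a chance rate. Thy replicate 2 was far above the other replicate 2 libraries in the mt-Nd3 load (1.09%, against 0.399% to 0.481%), the mt-Nd3 load of alleles at 1% or more (0.183%, against 0.0138% to 0.0583%) and the number of such alleles (48, against 2 to 12). It was also far above them in the mt-Nd4l load (1.19%, against 0.405% to 0.496%), the mt-Nd4l load of alleles at 1% or more (0.270%, against 0.00644% to 0.0451%) and the number of such alleles (52, against 1 to 8).

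CD24_CD29 replicate 1 was far above the other replicate 1 libraries in the mt-Nd3 load of alleles at 1% or more (0.0343%, against 0.00930% to 0.0172%) and in their number (8, against 2 to 4). The same load expected from the other forward-strand protein genes was also highest there (0.0311%, against 0.0141% to 0.0172%). CD24_CD29 replicate 2 was far below the other replicate 2 libraries in C10099T of mt-Nd4l (0.759%, against 1.87% to 2.59%). These are the shallowest libraries of their replicate numbers, and the part of depth was not tested.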

How the results depend on the processing

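No member was called between subsets by edgeR, and the replicate block called none either. Most alleles of these fits entered only through Thy replicate 2, and A9527G and C10103T only through CD24_CD29. C10016T, the allele that the quasi-binomial model called for CD29, entered only through CD29 replicate 2 (1.45%). The counts for these subsets are therefore no independent test. With the share of all alleles called beside each, DESeq2 called 83 (Thy, 58.0%) and 2 (CD24_CD29, 1.92%), and the quasi-binomial model 79 (Thy, 60.3%), 1 (CD24, 0.0287%) and 1 (CD29, 0.086%). Leaving out 1 library gave 0 to 91 over all subsets, 0 to 94 for Thy and 0 to 9 for CD24, each highest without Thy replicate 1 (65.9%, 68.7% and 4.22% of all alleles), and 0 to 1 for CD24_CD29 (1 without CD24_CD29 replicate 1, 0.717%). Between replicate numbers 9 to 11 of 148 were called with a library left out (5.31% to 5.85% of all alleles), and 7 of 18 at a threshold of 2% (29.9%). The members called with all libraries had entered through the number where they were higher, so these counts are no independent test either. The call was lost without a fraction filter for C10044T (adjusted p = 0.123), T10018C (0.118), A10077G (0.255) and A9504G (0.178). A lone subset library adds no spread within its subset: without Thy replicate 1 the subset share of variance passed for all 6 loads and numbers. Over the 16 libraries left out it ran from 0.461 to 0.995 (mt-Nd3 load), 0.410 to 0.980 (its load at 1% or more), 0.421 to 0.989 (its number of alleles), 0.482 to 0.994 (mt-Nd4l load), 0.483 to 0.989 (its load at 1% or more) and 0.474 to 0.994 (its number of alleles). The mt-Nd4l log2 ratio to the expected load was 0.0278 to 0.0397 with a library left out and passed (adjusted exact permutation p = 0.0313) without Thy_6C3 replicate 2 (0.0357), with all positions outside both genes as background (0.0410) and with no correction for composition (0.0372). The subset means behind that ratio share alleles, so its p-values speak only of the spread between subsets. Widespread synonymous mt-Nd4l alleles numbered 10 at 0.5% and 2 when all 8 libraries of a number were asked for, and the other widespread mt-Nd4l alleles 8 at 0.5%. Widespread mt-Nd3 stop gains numbered 2 in all 4 alternatives. The causes were not tested. The G>A mean without both stop gains, the thresholds for widespread alleles and the fits with alleles chosen anew were added after seeing the data. Depth limits alleles under about 0.0432% in the shallowest library.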
